A study of Mus musculus with 8 samples.

Results

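The transcription factors that set and maintain lung epithelial identity were examined in lung epithelial cells of mice that had inhaled bacterial lipopolysaccharide (LPS) for 10 weeks and of control mice that had inhaled PBS. The group is a list of 10 genes, chosen by name (Nkx2-1, Foxa1, Foxa2, Gata6, Cebpa, Elf3, Klf5, Grhl2, Sox2 and Sox9). Of these, 9 had a row in the table of 13265 genes, and all 9 had at least 30 UMIs (unique molecular identifiers, which count captured mRNA molecules) over the 8 libraries and were among the 12661 genes tested. Sox9 has no row in the table and was not analysed here.

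Epithelial cells were sorted as EpCAM+ CD31- CD45-, 10000 cells per mouse, and measured by a bulk form of MARS-seq, which counts mRNA 3′ ends. LPS mice (n = 3) inhaled aerosolized PBS with LPS of Escherichia coli at 0.5 mg/ml, in sessions of 30 min given 3 times a week. PBS mice (n = 5), the controls, inhaled PBS without LPS on the same schedule. All mice had the C57BL6 background, and the study's methods describe young females. The names of the library columns carry wt, for wild type. The question was how the epithelium differs after chronic inflammation. Library names are those of the table's columns (s4, s14 and s18 for LPS, and s1, s2, s6, s11 and s16 for PBS). Cells without EpCAM at the surface were not collected.

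Lung epithelium is specified in the embryonic foregut by Nkx2-1, a homeodomain factor that works with the forkhead factors Foxa1 and Foxa2, which can bind closed chromatin, and with the zinc finger factor Gata6. Sox2 and Sox9 then divide the tree into a proximal, airway-forming part and distal tips from which alveoli arise, and Cebpa and Klf5 act in the maturation of alveolar cells. Grhl2 maintains the genes of epithelial junctions, and Elf3 is an ETS factor of epithelia. In adult lung these factors control surfactant, secretoglobin and junction genes.

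Totals were 2739340 to 4445431 UMIs in LPS libraries and 2232727 to 2890560 in PBS libraries, so that 3 UMIs correspond to 0.675 to 1.34 CPM (UMI counts scaled to a common library size). All levels below are CPM after TMM scaling. Each transcript is counted at its 3′ end, so that transcript length does not enter, although capture can differ between genes. The libraries were not uniform. PBS s1 and s2 were close to each other, with a chi-square per degree of freedom of 2.81, against 7.24 to 21.5 for the other PBS pairs and 7.18 to 8.02 for the LPS pairs. PBS s16 was far from s1, s2 and s6, at 19.9 to 21.5, and nearer to s11, at 9.50. The sorted cells carried the markers of their label. Alveolar type II markers summed to 92117 to 95107 CPM in LPS libraries and 109083 to 161573 CPM in PBS libraries, and the groups did not overlap. Ciliated cell markers (15 of 15 detected, none at 0 in any library) summed to 6501 to 7677 CPM in LPS libraries and 1658 to 5052 CPM in PBS libraries. Macrophage markers, which the CD45 gate should remove, were also higher in LPS libraries (1315 to 2496 CPM, against 467 to 779 CPM in PBS libraries). Of these markers 12 of 20 were called higher, beside 1.46% of all genes. In bulk samples, fewer cells of a type and less RNA per cell cannot be told apart.

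No lung lineage factor was called different between LPS and PBS mice. A call needed a Benjamini-Hochberg adjusted p under 0.05 over all tested genes in edgeR's quasi-likelihood test and a level in one group more than 25% above that in the other. Of the 9 factors tested, 0 were called higher and 0 lower. Over all 12661 genes 2.03% were called, 1.46% higher and 0.569% lower, so that a count of 0 among 9 is near this background. DESeq2 called 4.42% of all genes and none of the factors, and limma-voom called none of them either. At an unadjusted p under 0.05 in edgeR, 2 of 9 factors, Elf3 and Sox2, were higher in LPS mice, beside 10.4% of all genes, and 0 were lower, beside 7.64% of all genes. The log2 fold changes were positive for 6 factors and negative for 3, with a median of 0.07, against −0.02 for all tested genes. The LPS and PBS values did not overlap for 1 of the 9, Elf3, and for 14.4% of all genes. A p that misses the threshold does not show that the levels were equal, and the intervals given for each factor show what sizes remain possible.

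The factors covered a wide range of levels, from Nkx2-1, with a mean of 418 CPM over the 8 libraries, to Grhl2 with 31.6 CPM. Nkx2-1 and Cebpa (346 CPM) stood at percentiles 97.8 and 97.2 of all tested genes. Nkx2-1 exceeded Cebpa in 7 of 8 libraries, and Cebpa exceeded Foxa2 (119 CPM) in 8 of 8. The middle of the order was not resolved. Foxa2 exceeded Elf3 (100.03 CPM) in 6 of 8 libraries, Elf3 exceeded Klf5 (98.7 CPM) in 4 of 8, Klf5 exceeded Foxa1 (66.8 CPM) in 6 of 8, and Foxa1 exceeded Gata6 (55.9 CPM) in 6 of 8. Gata6 was above Sox2 (33.1 CPM) in 8 of 8 libraries, whereas Sox2 was above Grhl2 in 5 of 8. The lowest single count of any factor was 22 UMIs, for Foxa1 in PBS s16, and every other count of a factor was higher.

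Promoter windows of 3 factors are shown because Elf3 and Sox2 are the factors with the largest differences between the groups and Foxa1 the one that varied most among PBS mice. Each window spans 250 bases before to 50 bases after a RefSeq transcription start on GRCm38.p6 (the assembly of mm10), written 5′ to 3′ on the strand of the gene. RefSeq windows were used for 6 of the 10 factors (8 windows, since Foxa2 has several starts). Elf3 is shown at chr1:135258423-135258722 (minus strand), Sox2 at chr3:34649745-34650044 (plus strand) and Foxa1 at chr12:57546062-57546361 (minus strand), a start inside the annotated gene. Capitals mark exact matches, on either strand, to the letters of a motif that one of the factor families recognizes.
Elf3: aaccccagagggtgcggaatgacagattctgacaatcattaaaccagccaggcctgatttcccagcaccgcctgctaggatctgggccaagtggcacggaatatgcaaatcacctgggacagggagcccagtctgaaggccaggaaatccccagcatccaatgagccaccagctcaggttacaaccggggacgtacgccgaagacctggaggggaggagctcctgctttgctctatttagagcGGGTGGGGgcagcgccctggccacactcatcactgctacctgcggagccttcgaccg
Sox2: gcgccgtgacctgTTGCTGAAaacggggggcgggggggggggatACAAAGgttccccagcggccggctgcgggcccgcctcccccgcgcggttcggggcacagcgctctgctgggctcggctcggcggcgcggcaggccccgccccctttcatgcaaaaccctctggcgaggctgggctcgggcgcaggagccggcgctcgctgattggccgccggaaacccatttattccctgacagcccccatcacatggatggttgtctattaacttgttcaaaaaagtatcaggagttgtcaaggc
Foxa1: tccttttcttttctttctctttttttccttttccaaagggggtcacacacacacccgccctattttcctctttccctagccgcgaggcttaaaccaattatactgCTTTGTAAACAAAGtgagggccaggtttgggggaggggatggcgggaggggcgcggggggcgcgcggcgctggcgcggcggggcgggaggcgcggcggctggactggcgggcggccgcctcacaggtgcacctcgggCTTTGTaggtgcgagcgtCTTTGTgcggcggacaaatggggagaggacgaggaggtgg

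The Elf3 window holds 1 match to the KLF letters CCCCACCC, read on the other strand as GGGTGGGG. The Sox2 window holds 1 match to the C/EBP letters TTGCNNAA and 1 to the SOX letters ACAAAG. In the Foxa1 window a forkhead match (TGTTTAC, read on the other strand as GTAAACA) lies between 2 SOX matches that share letters with it at both ends, and the window has 4 SOX matches in all. Among 32851 promoter windows of this length, the forkhead letters occur in 3.6%, the SOX letters in 18.7%, the C/EBP letters in 10.8% and the KLF letters in 10.0%. Of the 8 windows of the factors, 1 held the forkhead letters, 3 the SOX letters, 1 the C/EBP letters and 4 the KLF letters, and 2 of those with KLF letters belong to Foxa2. The NKX2-1 letters CTCAAG (15.9% of all windows) occurred in 1 of the 8. The same count of 1 was found for the zinc finger letters of Gata6, AGATAA (11.2%), and for the ETS letters AGGAAGT (9.4%). Those of grainyhead factors, AACCNGTT (2.1%), occurred in 0. A TATA box, searched as TATAAA (13.6%), was matched in 2. Such matches are short and say nothing about binding in these cells.

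Nkx2-1 (chr12:56531935-56536908) was the most abundant of the factors and its level did not separate the groups. It had 407, 301 and 555 CPM in LPS s4, s14 and s18, against 495, 498, 452, 276 and 362 CPM in PBS s1, s2, s6, s11 and s16. The highest library was LPS s18, the lowest PBS s11, and the groups overlapped throughout. The group means were 421 ± 127 CPM in LPS mice (SD, n = 3) and 417 ± 96.0 CPM in PBS mice (SD, n = 5). The log2 fold change was 0.02 ± 0.23 (SE, 95% interval −0.49 to 0.52), with an edgeR adjusted p of 0.985. Its sign was not stable, since it was −0.24 without LPS s18 and 0.21 without LPS s14, and neither passed the test.

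The forkhead factors Foxa1 and Foxa2 are closely related and can stand in for each other in lung development. Foxa2 (chr2:148042877-148046969) had 129, 116 and 124 CPM in LPS mice, against 133, 126, 139, 106 and 82.9 CPM in PBS mice. The LPS values lay close together inside the range of the PBS values, whose lowest were s11 and s16. EdgeR put its log2 fold change at 0.07 ± 0.17 (SE, 95% interval −0.30 to 0.43), adjusted p = 0.878. Without PBS s16 the value was −0.04, again short of a call.

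Foxa1 (chr12:57540628-57548029) had the widest spread of all the factors. LPS s4, s14 and s18 had 77.1, 64.7 and 93.2 CPM, against 104, 98.7, 63.0, 25.1 and 8.90 CPM in PBS s1, s2, s6, s11 and s16. The highest PBS library exceeded the lowest 11.7-fold, whereas the LPS libraries spanned 1.44-fold. For comparison, the other factors spanned at most 3.74-fold among PBS libraries (Sox2). The log2 fold change of Foxa1 was 0.37 ± 0.53 (SE, 95% interval −0.79 to 1.53), and the adjusted p was 0.764 in edgeR. An exact two-sided permutation test of the log2 CPM of the 3 LPS and 5 PBS mice gave p = 0.429, where 1 of 56 assignments, 0.0179, is the smallest p the design allows. The sign rested on which PBS libraries were used: it was −0.35 without PBS s6, s11 and s16, −0.18 without s11 and s16, and 1.27 without s1 and s2, with no call in any of these fits.

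Within a library, Foxa1 gave 0.599, 0.559 and 0.752 UMIs per Foxa2 UMI in LPS s4, s14 and s18, against 0.783, 0.781, 0.454, 0.237 and 0.107 in PBS s1, s2, s6, s11 and s16. This ratio does not depend on the scaling of the libraries, and it was chosen after the values had been seen. Foxa2 was thus the more abundant in every library, by the widest margin in PBS s16. The LPS and PBS ratios overlapped, with an exact permutation p of 0.375 (3 against 5 mice, two-sided). Among 6410 genes with a mean of at least 20 CPM, 14 (0.218%) had both PBS s11 and PBS s16 below 0.5 times every other library. Foxa1 was the only factor among them. The pair and the cut were chosen from the Foxa1 values, so that Foxa1 was bound to be counted. No other pair of libraries was counted, and the share does not show that Foxa1 is unusual. Foxa1 overlaps Ttc6 in the annotation (5.56 CPM), and the sources used here do not say whether strand was used in counting.

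**Figure D1:**
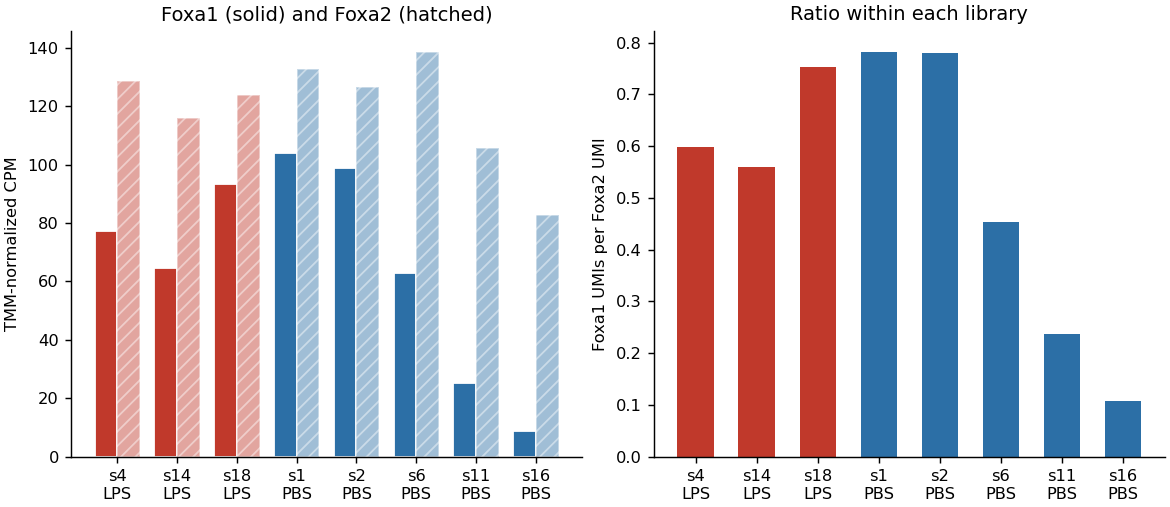
Left, Foxa1 (solid) and Foxa2 (hatched) in each library, in TMM-normalized CPM, and right, Foxa1 UMIs per Foxa2 UMI in the same library, with LPS libraries in red and PBS libraries in blue. The ratio lies between 0.559 and 0.752 in the LPS libraries and between 0.107 and 0.783 in the PBS libraries, lowest in s16.

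Gata6 (chr18:11052510-11085636), which acts early in endoderm and later in alveolar differentiation, had the lowest log2 fold change. It had 55.7, 47.9 and 50.3 CPM in LPS mice, against 60.5, 65.2, 61.4, 53.1 and 53.4 CPM in PBS mice. LPS s14 and s18 lay below all PBS libraries, while LPS s4 lay above PBS s11 and s16. The log2 fold change was −0.19 ± 0.13 (SE, 95% interval −0.48 to 0.09), adjusted p = 0.464 by edgeR, with an exact permutation p of 0.0893. It stayed negative and uncalled in all 18 alternatives, from −0.28 to −0.12. The noncoding gene Gata6os, which overlaps Gata6, averaged 1.31 CPM.

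Cebpa (chr7:35119293-35121928), a basic leucine zipper factor needed for the maturation of alveolar type II cells, had 274, 295 and 412 CPM in LPS mice, against 436, 390, 375, 311 and 274 CPM in PBS mice. LPS s4 and PBS s16 shared the lowest level, and LPS s18 was above all PBS libraries but s1. The log2 fold change was −0.13 ± 0.19 (SE, 95% interval −0.53 to 0.28), and edgeR gave an adjusted p of 0.773.

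Klf5 (chr14:99298691-99313412), a zinc finger factor of epithelial progenitors, had the smallest log2 fold change of the factors in absolute size. It had 99.7, 89.6 and 105 CPM in LPS mice, against 98.8, 91.9, 99.7, 86.4 and 118 CPM in PBS mice, so that all LPS values fell inside the PBS range. Its log2 fold change was −0.01 ± 0.14 (SE), and the 95% interval ran from −0.31 to 0.29. Expressed as folds, the data leave room for 0.809 to 1.22 times the PBS level (adjusted p = 0.982, edgeR).

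Grhl2 (chr15:37232821-37363569), the least abundant factor, had 27.4, 38.8 and 34.0 CPM in LPS mice, against 32.4, 30.3, 24.3, 27.5 and 38.4 CPM in PBS mice. The groups were interleaved, with a log2 fold change of 0.12 ± 0.18 (SE, 95% interval −0.28 to 0.52) and an adjusted p of 0.778 in edgeR. The noncoding gene Gm16136 overlaps its annotated locus and averaged 54.0 CPM, more than Grhl2 itself. Without knowing whether strand was used, reads of one and the other cannot be told apart in the overlap.

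Elf3 (chr1:135253574-135258472) was higher in every LPS library than in any PBS library, without passing the test over all genes. It had 118, 120 and 118 CPM in LPS s4, s14 and s18, against 82.4, 73.9, 108, 71.9 and 108 CPM in PBS s1, s2, s6, s11 and s16. The LPS libraries agreed closely, and PBS s6 and s16 came near them. Means were 119 ± 1.41 CPM in LPS mice (SD, n = 3) and 88.8 ± 17.8 CPM in PBS mice (SD, n = 5). In log2, LPS exceeded PBS by 0.42 ± 0.16 (SE, 95% interval 0.07 to 0.77), with an adjusted p of 0.193 in edgeR. The exact two-sided permutation test gave p = 0.0357, unadjusted, for the 3 LPS and 5 PBS mice. Over the 18 alternatives the value stayed positive, between 0.31 and 0.62, with adjusted p from 0.0503 to 0.420.

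Divided by Epcam, which encodes the protein the cells were sorted on, Elf3 was still higher on average in LPS mice, by 0.50 in log2, but the groups overlapped. The ratio was 1.11, 1.11 and 0.860 in LPS mice, against 0.558, 0.548, 1.01, 0.671 and 0.953 in PBS mice, with an exact permutation p of 0.143. LPS s18 here fell below PBS s6 and s16. Epcam itself had 107 to 137 CPM in LPS mice and 107 to 148 CPM in PBS mice. Macrophage marker sums were also higher in LPS mice, with 2496, 1315 and 1900 CPM in LPS s4, s14 and s18, against 467, 736, 694, 681 and 779 CPM in PBS s1, s2, s6, s11 and s16. Their part in the Elf3 difference was not tested.

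Sox2 (chr3:34649995-34652461), the factor of the proximal airway, had the largest log2 fold change of the 9. LPS s4, s14 and s18 had 52.6, 46.9 and 42.0 CPM, against 46.3, 33.2, 12.4, 12.5 and 18.6 CPM in PBS s1, s2, s6, s11 and s16. PBS s1 lay within the LPS range, s2 below it, and the other 3 PBS libraries far below. Means were 47.2 ± 5.30 CPM in LPS mice (SD, n = 3) and 24.6 ± 14.8 CPM in PBS mice (SD, n = 5). In log2, the difference was 0.91 ± 0.36 (SE, 95% interval 0.13 to 1.70), with p = 0.0265 before and 0.208 after adjustment in edgeR, and the exact permutation p was 0.0714.

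The Sox2 difference rested on PBS s6, s11 and s16, where the counts were 31, 26 and 46 UMIs. PBS s1 and s2 had the highest Sox2 levels of the PBS libraries, so leaving them out raises the difference by itself. Without PBS s1 and s2 it was 1.69 and was called, with an adjusted p of 0.00602 in edgeR. Without PBS s6, s11 and s16 it was 0.26, with an adjusted p of 0.528. A fit without s1 alone gave 1.27 and an adjusted p of 0.0517. Divided by Epcam within a library, Sox2 differed by 1.19 in log2 between LPS and PBS mice, with an exact permutation p of 0.0536.

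In the lung, Sox2 is found in airway cells, ciliated cells among them, and the summed ciliated markers were likewise higher in LPS mice. Per 1000 CPM of these markers, Sox2 had 8.09, 6.11 and 6.43 CPM in LPS s4, s14 and s18, against 9.16, 8.63, 7.45, 3.05 and 3.76 CPM in PBS s1, s2, s6, s11 and s16. On this scale PBS s6 joined s1 and s2, and PBS s11 and s16 alone were low. The log2 difference was 0.23, with an exact permutation p of 0.625. The 15 ciliated markers themselves had positive log2 fold changes, from 0.40 to 0.96 with a median of 0.84, and none was called, beside 2.03% of all genes. At an unadjusted p under 0.05 in edgeR, 10 of the 15 were higher in LPS mice, beside 10.4% of all genes. The groups did not overlap for 9 of the 15, beside 14.4% of all genes. The sums of the ciliated markers were 6501, 7677 and 6541 CPM in LPS s4, s14 and s18, against 5052, 3850, 1658, 4118 and 4951 CPM in PBS s1, s2, s6, s11 and s16. Other airway markers did not separate the groups. Club marker sums were 26134 to 48504 CPM in LPS mice and 21840 to 72882 CPM in PBS mice, highest in PBS s16. Goblet marker sums were 675 to 1595 CPM in LPS mice and 208 to 1540 CPM in PBS mice. Whether the Sox2 difference went with ciliated cells was not tested. Sox2 lies within the annotated Sox2ot locus, which is not analysed here.

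**Figure D2:**
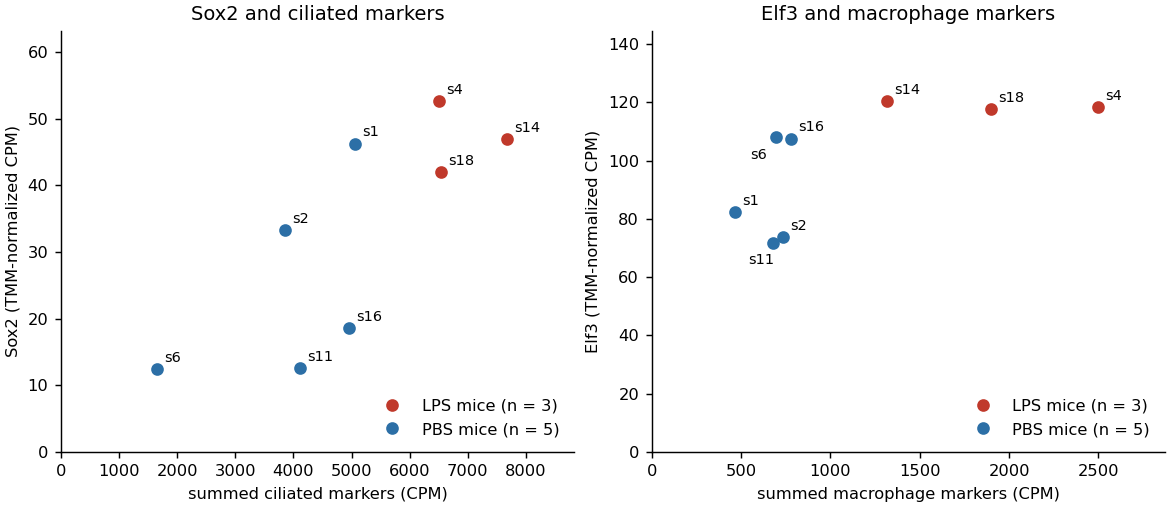
Left, Sox2 against the sum of 15 ciliated cell markers, and right, Elf3 against the sum of 20 macrophage markers, in each library (both axes in TMM-normalized CPM), with LPS libraries in red and PBS libraries in blue. The LPS libraries lie to the right of all PBS libraries in both plots, and PBS s6 has both the lowest Sox2 level (12.4 CPM) and the lowest ciliated sum (1658 CPM).

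**Figure D3:**
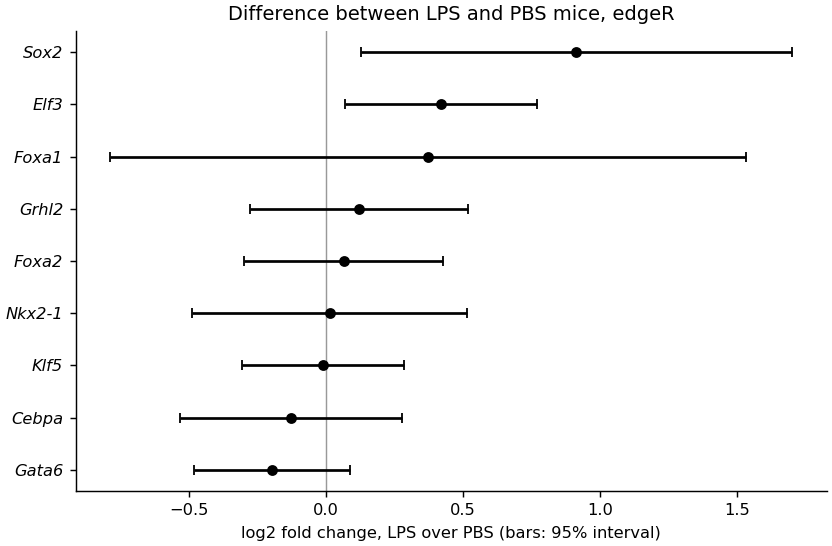
Log2 fold change of LPS over PBS mice for the 9 factors from edgeR, with 95% intervals as bars. The intervals of Sox2 (0.13 to 1.70) and Elf3 (0.07 to 0.77) lie above 0 before adjustment over all genes, and the other 7 include 0.

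The genes that followed each factor most closely over the 8 libraries, among 6409 other genes with a mean of at least 20 CPM, are given as a description, since all points share the libraries and their scaling. Nkx2-1 was followed by H6pd (Pearson r of log2 CPM 0.964) and Fgfrl1 (0.961). Foxa1 was followed by Cd164 (0.989), Rbm39 (0.986) and Nptn (0.985), and Foxa2 by Snap23 (0.982), Arf4 (0.981) and Adam9 (0.976). Gata6 was followed by Svil (0.959), Got2 (0.957) and Tinagl1 (0.954). For Cebpa the closest genes were Usp10 (0.916), Dnajc9 (0.902) and Map2k7 (0.901), the lowest set of values among the factors. Elf3 was closest to Tmem129 (0.969), Dpp7 (0.932) and Slc17a5 (0.924), Klf5 to Stx6 (0.932), Golm1 (0.912) and Fam3a (0.902), and Grhl2 to Inppl1 (0.949), Ntmt1 (0.940) and Atg2a (0.926). Sox2 was closest to Acsl3 (0.984), Eml2 (0.983) and Akap9 (0.975). None of these genes was called between LPS and PBS mice, and no factor was among the closest 3 of another.

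Relatives of the factors within their gene families were measured to see whether another member of a family differed. Of 34 listed, 26 were tested, and 0 were called in either direction, beside 2.03% of all genes. A count of 0 among 26 is near that share, and their median log2 fold change was −0.06. Those with the smallest p were Foxf2, a forkhead factor of lung mesenchyme, and Cebpb, a C/EBP factor of acute inflammatory responses. Foxf2 had 1.68, 1.05 and 0 CPM in LPS s4, s14 and s18, against 4.87, 3.23, 2.39, 1.45 and 1.62 CPM in PBS s1, s2, s6, s11 and s16, which is only a few UMIs per library (adjusted p = 0.244, edgeR). Cebpb had 243, 250 and 232 CPM in LPS mice, against 216, 233, 139, 174 and 171 CPM in PBS mice. Here PBS s2 reached the lowest LPS library, and the log2 fold change was 0.37 ± 0.16 (SE), adjusted p = 0.256 by edgeR. Without PBS s1 and s2 it was 0.59 and was called (adjusted p = 0.0362, edgeR). That fit also called more of all genes, 527 higher and 381 lower, against 185 and 72 with all libraries. Without PBS s6, s11 and s16 the Cebpb value was 0.12 (adjusted p = 0.663, edgeR).

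Among other regulators of lung epithelial identity, 33 of 41 were tested and 0 were called, beside 2.03% of all genes. At an unadjusted p under 0.05, 3 of the 33 were higher and 9 lower in LPS mice, beside 10.4% and 7.64% of all genes. The median log2 fold change was −0.20, and the groups did not overlap for 11 of the 33, beside 14.4% of all genes. Tfcp2l1, a grainyhead-related factor, had 47.3, 54.2 and 57.4 CPM in LPS mice, against 83.8, 71.6, 73.4, 80.6 and 98.7 CPM in PBS mice. Every LPS library was below every PBS library. The log2 fold change of Tfcp2l1 was −0.62 ± 0.15 (SE), and its edgeR adjusted p of 0.0535 just missed the threshold. It was called by DESeq2 (adjusted p = 0.00939), and in edgeR with upper quartile scaling (0.0422), without PBS s6 (0.0470) and without PBS s1 and s2 (0.0391). Myb, which acts in multiciliated cell differentiation, had 27.4, 39.9 and 30.5 CPM in LPS mice, against 22.3, 18.1, 5.58, 9.65 and 7.28 CPM in PBS mice. Its order among the PBS libraries resembled that of Sox2, with s1 and s2 above the other 3 (log2 fold change 1.34 ± 0.36, SE, adjusted p = 0.0864 in edgeR). Myb was called by DESeq2 (adjusted p = 0.0184) and in edgeR without PBS s1, where the log2 fold change was 1.64, and without PBS s1 and s2, where it was 2.12. Without PBS s6, s11 and s16, edgeR gave 0.69 for Myb (adjusted p = 0.147) and −0.54 for Tfcp2l1 (adjusted p = 0.110).

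Of the target genes of the alveolar cell, on which Nkx2-1, Foxa2 and Cebpa act, 10 of 14 had a negative log2 fold change. The number called was 0, beside 2.03% of all genes. Of the 14, 3 had an unadjusted p under 0.05, all of them lower in LPS mice, beside 7.64% of all genes, and the median log2 fold change was −0.31. Napsa, a protease that processes surfactant protein B, had 3482, 4001 and 3850 CPM in LPS mice, against 4565, 4526, 6982, 6058 and 5395 CPM in PBS mice, with an adjusted p of 0.163 in edgeR. Sftpb, which encodes surfactant protein B, had 16022, 12743 and 15883 CPM in LPS mice, against 18563, 18959, 26715, 27167 and 22715 CPM in PBS mice (adjusted p = 0.167, edgeR). Both genes separated the groups, and in both PBS s1 and s2 were nearest to the LPS libraries. DESeq2 called Sftpb (adjusted p = 0.0239), and without PBS s1 and s2 edgeR called both, with log2 fold changes of −0.70 for Napsa and −0.78 for Sftpb. Without PBS s6, s11 and s16, edgeR gave −0.26 for Napsa (adjusted p = 0.336) and −0.32 for Sftpb (adjusted p = 0.295). The alveolar type II marker sum was also lower in LPS libraries. That sum shares Sftpa1, Sftpb, Sftpc, Abca3, Slc34a2 and Lamp3 with this list, so it is not a separate measure. In LPS s4, for example, Sftpc made up 66550 of its 92117 CPM. The part of type II cell numbers in these values was not tested.

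Among airway target genes 7 of 10 had a positive log2 fold change, and 0 were called, beside 2.03% of all genes. Of the 10, 2 had an unadjusted p under 0.05, both higher in LPS mice, beside 10.4% of all genes, and the median log2 fold change was 0.21. Aldh1a1, an aldehyde dehydrogenase, had 709, 637 and 643 CPM in LPS mice, against 453, 470, 165, 207 and 384 CPM in PBS mice (adjusted p = 0.119, edgeR). Cyp2f2, a cytochrome P450 of club cells, had 2855, 3238 and 4005 CPM in LPS mice, against 2431, 1782, 1022, 1355 and 2861 CPM in PBS mice (adjusted p = 0.160, edgeR). For Aldh1a1 the groups did not overlap, and for Cyp2f2 PBS s16 slightly exceeded LPS s4. Aldh1a1 was called by DESeq2 (adjusted p = 0.0403), and by edgeR without PBS s1 and s2, with a log2 fold change of 1.39. Without PBS s6, s11 and s16 its log2 fold change was 0.53 (adjusted p = 0.0599, edgeR).

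Among epithelial junction genes, several of which Grhl2 controls, Cldn4 was called higher in LPS mice. It encodes a claudin of tight junctions and had 17.8, 23.8 and 24.5 CPM in LPS mice, against 10.1, 8.39, 7.18, 4.82 and 11.3 CPM in PBS mice. The groups were clearly separated, with a log2 fold change of 1.38 ± 0.25 (SE) and an adjusted p of 0.0179 by edgeR. Of 20 junction genes tested it was the only one called higher, beside 1.46% of all genes, and 0 were called lower, beside 0.569%. A count of 1 among 20 is too small to set apart from that share. The median log2 fold change of the 20 was 0.05. The Cldn4 call was lost without LPS s14 (log2 fold change 1.32, adjusted p = 0.0812 in edgeR) and without LPS s18 (1.28, adjusted p = 0.0960). Epcam had a log2 fold change of −0.06 ± 0.15 (SE).

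**Figure D4:**
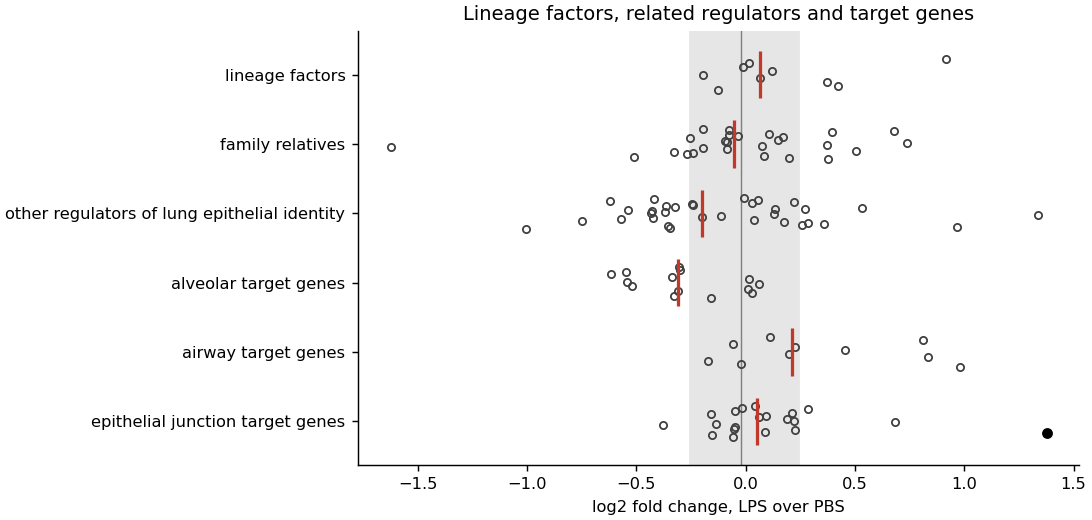
Log2 fold change, LPS over PBS, of the 9 lineage factors, their family relatives, other regulators and target gene lists, 1 point per gene, with the filled point called (Cldn4), red bars at list medians, and the grey band and line marking the middle 50% (−0.25 to 0.24) and median (−0.02) of all tested genes. Medians run from −0.31 for alveolar to 0.21 for airway target genes, and that of the lineage factors is 0.07.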

How the data were processed

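Epithelial cells of 3 LPS and 5 PBS mice were measured by bulk MARS-seq. The authors processed reads with their UTAP pipeline, in which UMIs are counted from uniquely mapped reads at gene 3′ ends (RefSeq annotation, mm10), and the deposited raw counts per gene and mouse were used here. The sources used here name no aligner. The table's 16 other columns of values per mouse, and its columns of fold changes and p-values from the authors' DESeq2 comparison, were not used.

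Each column is named by its group and by a number absent from the labels, so a library's group is known and its replicate number is not. The labels call the samples biological replicates. Genes with at least 30 UMIs over the 8 libraries were tested (604 were not) with edgeR 4.0.16 (glmQLFit and glmQLFTest, TMM, R 4.3.3), on all 8 libraries with no covariate. Alternatives used other scalings and filters, DESeq2 1.42.0, limma-voom (limma 3.58.1), other fold thresholds and left-out libraries. Permutation tests were exact, two-sided, on log2 CPM or log2 ratios, over all 56 assignments. The edgeR step was also run on simulated counts, which did not copy the differences between particular PBS libraries. That run therefore does not test their effect. Intervals cover the spread between these mice.

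The factors and lists were chosen with earlier results of these data known. The text names all 10 factors, from each list the called genes (at most 4, by adjusted p) or otherwise the 2 with the smallest p, and for each factor the 3 genes with the highest Pearson r, of which 1 is not reported here. Ratios within a library, the count for s11 and s16 and the fit without both were chosen after seeing the data. Promoter letters were searched on both strands of RefSeq windows (GRCm38.p6).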

Additional observations from a re-analysis of the deposited data

How the results depend on the processing

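Of 162 alternative values for the log2 fold changes of the 9 factors, 144 kept their direction and side of the threshold, 17 changed sign without being called, and 1 became a call. That call was Sox2 at 1.69 (adjusted p = 0.00602, edgeR) without PBS s1 and s2, where 1 factor was called higher, against 0 in the other alternatives; 0 were called lower in any. The changed signs were Cebpa 0.032 without PBS s1 and s2, Nkx2-1 −0.0097 with upper quartile scaling and Klf5 0.077 with library totals only. Without PBS s6, s11 and s16 they were Foxa1 −0.35, Foxa2 −0.066, Klf5 0.057 and Nkx2-1 −0.22, and without PBS s11 and s16 Foxa1 −0.18, Foxa2 −0.11, Klf5 0.023 and Nkx2-1 −0.19. Leaving out 1 library at a time gave −0.037 to 0.13 for Foxa2, −0.073 to 0.061 for Klf5 and −0.24 to 0.21 for Nkx2-1. The causes were not tested. Over all genes, 185 were called higher and 72 lower. DESeq2 called 369 and 191, the fit without PBS s1 and s2 527 and 381, and that without PBS s11 and s16 51 and 23. Library totals only gave 42 lower and the fit without PBS s6, s11 and s16 gave 47 lower. Leaving out 1 library gave 47 to 259 higher and 12 to 95 lower, over 1.5 times fewer without LPS s4, s14 or s18 or PBS s11. In the related lists, with 1 gene called higher and 0 lower, DESeq2 gave 3 and 2, the fit without PBS s1 and s2 5 and 6, that without PBS s6, s11 and s16 2 higher, and upper quartile scaling 1 lower. Single left-out libraries gave 0 to 2 higher (0 without LPS s14 or s18, so that the Cldn4 call was lost) and 0 to 1 lower. For the 9 genes named from these lists, 145 of 160 values kept direction and side, 0 changed sign, 13 became calls (6 of them in the fit without PBS s1 and s2 and 4 with DESeq2), and 2, both of Cldn4, lost the call. For Sox2, Cebpb, Myb, Napsa, Sftpb and Aldh1a1, PBS s1 and s2 were the PBS libraries nearest to the LPS libraries. Leaving them out therefore widened those differences by itself. Foxf2 gave no value at a minimum of 80 UMIs or without PBS s1 and s2, where it fell under the count minimum. Library totals moved the median of all genes by 0.08, and the other scalings by less. No paired analysis was possible because the columns carry no replicate number of the labels. At 22 UMIs, the lowest count of a factor, depth limits the precision of Foxa1 in PBS s16. The same holds for Sox2, with 31, 26 and 46 UMIs in PBS s6, s11 and s16.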
